A study of Mus musculus with 9 samples.

Results

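The Ikaros family are transcription factors that mouse lymphocytes use to set which lineage and effector genes are active. Its members are Ikzf1 (Ikaros), Ikzf2 (Helios), Ikzf3 (Aiolos), Ikzf4 (Eos) and Ikzf5 (Pegasus). They were chosen by gene symbol, and all 5 were found among the 37022 genes measured. The study isolated newly made RNA from mouse CD8+ T cells, the cytotoxic arm of the T cell compartment. Cells were fed 5-ethynyl uridine, a uridine analogue that enters RNA as it is transcribed, and the labelled RNA was captured by click chemistry and sequenced. There were 3 groups with 3 libraries each. The acute group held acutely stimulated cells, the chronic group held chronically stimulated cells, and the MEK inhibitor group held chronically stimulated cells that also received an inhibitor of MEK, the kinase that activates ERK. The inhibitor's name and dose, the duration of stimulation, and the strain, age and genotype of the mice are not given in the sources used here. Nothing in the labels says that the 3 libraries of a group came from separate cultures or animals, so p-values measure only the spread between these libraries, which may be technical.

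Ikaros family proteins bind DNA through zinc fingers near one end and pair with each other through zinc fingers at the other end. They recruit the nucleosome remodelling and deacetylase (NuRD) complex, the SIN3 complex and CtBP to the genes they bind, and they can both repress and activate. In T cells Ikaros is known for restraining cytokine and effector genes, Aiolos is a close relative of Ikaros in mature lymphocytes, and Helios and Eos are best known from regulatory T cells. Pegasus is the most divergent member. In human cells, Ikaros and Aiolos are also the proteins that thalidomide-type drugs direct to the cereblon ubiquitin ligase. This was not tested in these mouse cells.

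For every annotated transcript the deposited tables give a gene-body signal and a signal near the start of transcription, called the pause region here because RNA polymerase II is known to wait there before it elongates. Both are strandless signals without read counts, so the depth in reads behind a value is unknown. Each gene was read from the transcript with the most gene-body signal. Scale factors came from trimmed log ratios between libraries, so every level and change is relative to the bulk of the measured genes. Deposited gene-body totals, with 1 transcript per gene, lay between 48601757 and 52216192 per library. Libraries of one group correlated across genes at 0.959 to 0.984 in 9 pairs, against 0.910 to 0.954 in 27 pairs from different groups. A locus that carries ribosomal RNA-like sequence took 19.1% to 22.3% of the signal in acute libraries, 34.2% to 40.6% in chronic libraries and 29.0% to 36.1% in MEK inhibitor libraries. Scaling to library totals moved the median gene by -0.49 (log2) in chronic against acute, by 0.14 in MEK inhibitor against chronic and by -0.35 in MEK inhibitor against acute. On the deposited scale the same shifts were -0.47, 0.16 and -0.31, and with totals that leave out that locus they were -0.16, 0.02 and -0.14.

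The label CD8+ T cell was checked against 8 CD8 T cell markers, all of which were measured above the minimum. Their summed scaled gene-body signal ran from 39399.6 to 46969 in acute libraries, from 25695 to 30644 in chronic libraries and from 32637 to 36410.2 in MEK inhibitor libraries. Markers of B cells summed to between 254 and 859 over the 9 libraries, those of myeloid or dendritic cells to between 324 and 606, and those of red cells to between 6.80 and 44.9. Hba-a1 and Hbb-bt, the globin genes, were at 0 in every acute library. Natural killer markers summed to between 982 and 1873, mostly Eomes, which CD8 T cells also transcribe, and Ncr1 was at 0 in every MEK inhibitor library.

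Start-site sequence is shown first for Ikzf1 and Ikzf5, whose pause-region signals are described further on. RefSeq promoter entries matched 2 of the 5 symbols, and each gives the 250 bases before a start (GRCm38.p6, written 5′ to 3′ on the gene's strand). The entry at the first start of Ikzf1, chr11:11685675-11685924 on the plus strand, has a GC content of 82.0%, and 99.3% of the 32817 promoters in the RefSeq table have a lower one. Capitals mark its 2 GC boxes, GGGCGG read on either strand, a motif that 32.7% of the promoters hold.
Ikzf1 upstream promoter: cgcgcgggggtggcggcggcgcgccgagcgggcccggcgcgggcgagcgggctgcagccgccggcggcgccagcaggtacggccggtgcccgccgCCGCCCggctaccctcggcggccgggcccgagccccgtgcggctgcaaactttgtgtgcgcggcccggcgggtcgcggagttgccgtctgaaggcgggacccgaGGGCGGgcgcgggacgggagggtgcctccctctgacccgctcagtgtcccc
A second Ikzf1 entry lies inside the gene at chr11:11689927-11690176 on the plus strand, has a GC content of 47.6% and is shown for contrast.
Ikzf1 internal promoter: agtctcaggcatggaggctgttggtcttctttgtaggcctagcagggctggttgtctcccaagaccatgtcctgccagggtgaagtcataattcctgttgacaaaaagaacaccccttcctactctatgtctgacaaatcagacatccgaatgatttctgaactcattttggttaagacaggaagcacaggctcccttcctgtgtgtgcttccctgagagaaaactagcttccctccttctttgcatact
Neither Ikzf1 entry holds any of 5 other motifs on either strand. These were CCAAT, held by 33.8% of the promoters, the initiation element TATAAA, held by 12.4%, and the cores bound by ETS factors (CCGGAA, held by 12.0%), by RUNX factors (TGTGGT, held by 14.0%) and by the Ikaros family itself (TGGGAA, held by 21.6%). For Ikzf5 the 79 exon-free bases between its start and that of Acadsb, which is read in the other direction, are shown because both genes share this stretch: chr7:131410522-131410600 on the minus strand, GC content 60.8%, with none of the 6 motifs. The whole Ikzf5 entry, which reaches into exons on both sides and is not printed, has a GC content of 64.0% and holds 4 GC boxes, none of them whole within these 79 bases.
Ikzf5 and Acadsb shared stretch: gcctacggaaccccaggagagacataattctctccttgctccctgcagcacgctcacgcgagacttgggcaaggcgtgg

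Ikaros differed little between the groups, relative to other genes. The Ikzf1 transcript used spans 86714 bases on chromosome 11 (GRCm38, 11686213 to 11772926, plus strand), of which 5163 are exonic. Scaled gene-body signal was 30461, 31063 and 28325 in the acute libraries, 29466, 31775 and 28119.6 in the chronic libraries and 31335, 28448 and 30865 in the MEK inhibitor libraries. The 3 groups overlapped throughout, with means of 29949 ± 1439, 29787 ± 1849 and 30216 ± 1549 (SD, n = 3 each). The change was -0.01 in chronic against acute (log2, 95% interval -0.19 to 0.17, adjusted p = 0.953 in limma with Benjamini-Hochberg adjustment). It was 0.02 in MEK inhibitor against chronic (-0.16 to 0.20, adjusted p = 0.913) and 0.01 in MEK inhibitor against acute (-0.17 to 0.19, adjusted p = 0.939). Only 1.27%, 4.72% and 2.23% of the tested genes changed by less in these comparisons. These values are relative to other genes: scaled to library totals, Ikzf1 was lower by 0.50 in chronic and by 0.34 in MEK inhibitor libraries than in acute ones, and both differences then passed the test.

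With the scaling used here, Aiolos was the only member called lower in chronically stimulated cells. Its level with the MEK inhibitor was near the acute one. The Ikzf3 transcript used spans 80899 bases on chromosome 11 (98464902 to 98545800, minus strand), of which 3658 are exonic. Scaled gene-body signal was 13158, 14324 and 12759.8 in the acute libraries and 7766, 7085 and 5463 in the chronic libraries. With the MEK inhibitor it was 14207, 14326 and 12971. Every chronic library lay below every acute and every MEK inhibitor library, while the acute and inhibitor groups overlapped. Mean levels were 13414 ± 813, 6771 ± 1183 and 13835 ± 751 (SD, n = 3 each), so Ikzf3 fell 1.999-fold in chronic against acute cells (log2 change -0.9996, SE 0.11, limma adjusted p = 1.10e-06). It rose 2.06-fold in MEK inhibitor against chronic cells (1.04, SE 0.11, limma adjusted p = 1.49e-06). MEK inhibitor and acute cells differed by 0.04 (95% interval -0.19 to 0.28, adjusted p = 0.817).

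Of the CD8 T cell markers 6 of 8 were called lower in chronic against acute, beside 15.4% of all genes. In MEK inhibitor against chronic 3 of 8 were called higher, beside 8.54% of all genes. Cd8a itself changed by -2.07 and 1.55, while Cd3d (-0.04 and 0.14) and Cd3g (0.09 and -0.09) were called in neither comparison. A list of 6 regulatory or CD4 T cell markers had 4 genes with values, whose levels together came to 14962 to 21025 per acute library, 2697 to 3638 per chronic library and 9708 to 10036 per MEK inhibitor library, most of it from Lrrc32. None of these 4 was at 0 throughout a group, and Foxp3 and Cd40lg were not analysed here. The part of these shifts in the Ikzf3 result was not tested. In RNA from bulk cells, fewer cells of a type and less RNA per cell cannot be told apart.

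Helios showed the largest change of the family, and it was with the MEK inhibitor. The Ikzf2 transcript used spans 154608 bases on chromosome 1 (69531214 to 69685821, minus strand), of which 9278 are exonic. Scaled gene-body signal was 3530.2, 3483 and 3748 in the acute libraries and 4427, 4932 and 4066 in the chronic libraries. With the MEK inhibitor it was 11074, 10524 and 11021. The 3 groups did not overlap, and the inhibitor group stood far above the others. Mean levels were 3587 ± 141, 4475 ± 435 and 10873 ± 303 (SD, n = 3 each). Ikzf2 rose 2.44-fold in MEK inhibitor against chronic cells (log2 change 1.28, SE 0.09, limma adjusted p = 1.10e-08), and 95.4% of the tested genes changed by less. Against acute cells it rose 3.03-fold (1.60, 95% interval 1.40 to 1.80, limma adjusted p = 5.59e-10), more than 96.9% of the tested genes. The smaller rise in chronic against acute cells was 0.31 (SE 0.09, limma adjusted p = 0.0139) and depended on the scale: with library totals Ikzf2 was lower by 0.18 in chronic cells, on the deposited scale lower by 0.16, and with totals that leave out the ribosomal RNA-like locus higher by 0.15, none of which passed the test. It also missed the threshold without acute library 1 (0.29, adjusted p = 0.0557) or without chronic library 2 (0.25, adjusted p = 0.0715).

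Eos was higher after chronic stimulation with or without the inhibitor. The Ikzf4 transcript used is the most compact of the family, spanning 15149 bases on chromosome 10 (128630843 to 128645991, minus strand), of which 5150 are exonic. Scaled gene-body signal was 4622, 5658 and 5293 in the acute libraries and 7697, 7787 and 7683 in the chronic libraries. With the MEK inhibitor it was 9272, 7513 and 8269. Every acute library lay below every library of the other groups, which overlapped each other. Ikzf4 rose 1.49-fold in chronic against acute cells (means 5191 ± 526 and 7722 ± 56.1, SD, n = 3 each, log2 change 0.58, SE 0.10, limma adjusted p = 0.000172). Against acute cells, those with the inhibitor had a 1.61-fold rise (mean 8351 ± 882, 0.69, SE 0.10, limma adjusted p = 4.24e-05). MEK inhibitor against chronic cells gave 0.11 (95% interval -0.10 to 0.32, adjusted p = 0.549). The rise in chronic cells was 0.09 with library totals and 0.10 on the deposited scale and then did not pass the test, while the rise in MEK inhibitor against acute cells passed at each scaling. The 4 regulatory or CD4 T cell markers summed under Aiolos did not move as one beside the Helios and Eos results. In MEK inhibitor against chronic Lrrc32 rose by 2.07 and Zbtb7b, a factor of the CD4 lineage, by 0.78, Gpr83 had 0.56 and did not pass the test, and Cd4 fell by 0.94. Against acute, inhibitor libraries had Zbtb7b at 1.14 and Lrrc32, Gpr83 and Cd4 at -0.98, -3.26 and -1.92. The part of these marker shifts in the Helios and Eos results was not tested.

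Pegasus did not pass the test in any of the 3 comparisons. The Ikzf5 transcript used spans 21870 bases on chromosome 7 (131388652 to 131410521, minus strand), of which 4430 are exonic. Scaled gene-body signal was 1012, 974 and 888 in the acute libraries, 730.0, 834 and 747 in the chronic libraries and 735, 886 and 976 in the MEK inhibitor libraries. The chronic libraries lay below the acute ones without overlap, and the inhibitor libraries overlapped both groups. Means were 958 ± 63.5, 770.1 ± 55.6 and 866 ± 122 (SD, n = 3 each). The change was -0.31 in chronic against acute (95% interval -0.63 to 0.00, limma adjusted p = 0.123), 0.16 in MEK inhibitor against chronic (adjusted p = 0.554) and -0.15 in MEK inhibitor against acute (adjusted p = 0.512). With library totals Ikzf5 was lower by 0.80 in chronic and by 0.50 in MEK inhibitor cells than in acute cells, and both then passed the test. The lower level in chronic cells also passed on the deposited scale (-0.79) and with totals that leave out the ribosomal RNA-like locus (-0.47). The lower level in MEK inhibitor against acute cells passed on the deposited scale (-0.46) but not with the latter (-0.29).

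**Figure D1:**
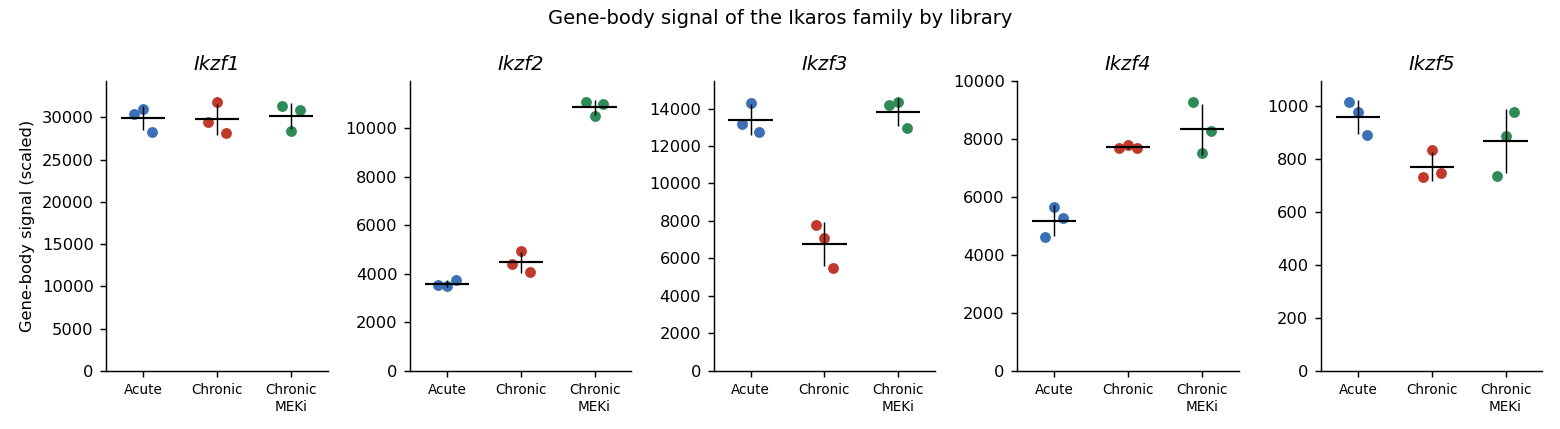
Scaled gene-body signal of each Ikaros family gene (vertical axes from 0, scaled signal) in the acute, chronic and MEK inhibitor libraries, with points for libraries, bars for group means and vertical lines for the SD (n = 3). The Ikzf1 libraries lie between 28119.6 and 31775, the chronic Ikzf3 libraries lie at 5463 to 7766 below all others, and the MEK inhibitor Ikzf2 libraries lie at 10524 to 11074 above all others.

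Counted together, 3 of 5 members passed the limma test in chronic against acute, where 33.3% of the 15942 tested genes did, 17.9% higher and 15.4% lower. Ikzf2 and Ikzf4 were the higher ones and Ikzf3 the lower one. With the inhibitor, 2 of 5 members passed against chronic, Ikzf2 and Ikzf3, both higher, against 16.7% of all genes, 8.54% higher and 8.15% lower. Against acute, 2 of 5 passed in inhibitor cells, Ikzf2 and Ikzf4, both higher, against 25.6% of all genes, 13.1% higher and 12.5% lower. The 3 comparisons share groups, so their counts are not independent of each other.

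The split of all called genes depended on the scale, which bears on the smaller changes above. In chronic against acute 2846 genes were higher and 2463 lower, against 1096 and 6846 with library totals, 1134 and 6713 on the deposited scale, and 2096 and 3759 with totals that leave out the ribosomal RNA-like locus. For MEK inhibitor against chronic the split was 1362 higher and 1300.0 lower, against 1769 and 741 with library totals and 1979 and 721 on the deposited scale. For MEK inhibitor against acute it was 2092 higher and 1989 lower, against 955 and 4965, 1023 and 4542, and 1572 and 3151 under the same 3 scalings in the order first given.

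**Figure D2:**
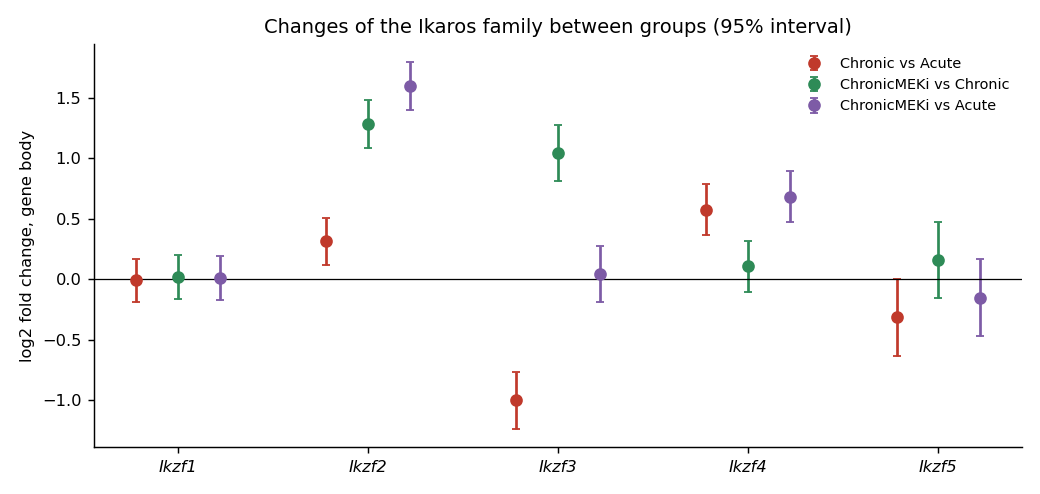
Log2 change of the gene-body signal of the 5 members in each comparison, with points for the fitted change and vertical lines for the 95% interval. Ikzf3 lies at -0.9996 in chronic against acute and at 1.04 in MEK inhibitor against chronic, and Ikzf2 at 1.28 and 1.60 in the MEK inhibitor comparisons, while the Ikzf1 intervals span 0 in each.

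To compare members with each other, gene-body signal was divided by the length of the transcript's span in kilobases. In acute cells Ikzf1 (345 ± 16.6 per kilobase) and Ikzf4 (343 ± 34.7) led and did not differ beyond their spread, followed by Ikzf3 (166 ± 10.0), Ikzf5 (43.8 ± 2.90) and Ikzf2 (23.2 ± 0.915) (SD, n = 3 each). In chronic cells Ikzf4 led with 509.8 ± 3.70, then Ikzf1 with 344 ± 21.3, Ikzf3 with 83.7 ± 14.6, Ikzf5 with 35.2 ± 2.54 and Ikzf2 with 28.9 ± 2.81. With the MEK inhibitor the order was Ikzf4 (551 ± 58.2), Ikzf1 (348 ± 17.9), Ikzf3 (171 ± 9.28), Ikzf2 (70.3 ± 1.96) and Ikzf5 (39.6 ± 5.56), so Helios and Pegasus traded places. Of all tested genes 95.9%, 95.5% and 95.9% had a lower level than Ikzf1 in acute, chronic and inhibitor cells. For Ikzf4 these shares were 95.8%, 97.1% and 97.6%, and for Ikzf3 88.7%, 72.8% and 89.2%. For Ikzf2 they were 40.3%, 44.3% and 68.4%, and for Ikzf5 between 49.0% and 55.3%. The Ikzf4 span has the largest exonic share of the 5, and the part of this in its level was not tested.

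The family's 5 levels per kilobase added up to 921 ± 47.9 for acute, 1001 ± 39.5 for chronic and 1181 ± 72.3 for MEK inhibitor libraries (SD, n = 3 each). These sums depend on the scale, which on the deposited values moves the median gene by -0.47 in chronic against acute. Their order between groups is therefore not read as a change, while shares within a library do not depend on it. Of the family's sum Ikzf1 made up 37.5% ± 1.75, 34.3% ± 0.872 and 29.5% ± 0.702, and Ikzf4 made up 37.2% ± 2.46, 51.0% ± 1.72 and 46.6% ± 2.07. Aiolos went from 18.0% ± 0.400 in acute to 8.34% ± 1.26 in chronic and 14.5% ± 1.26 in MEK inhibitor cells. Helios made up 2.53% ± 0.199, 2.89% ± 0.170 and 5.97% ± 0.225, and Pegasus 4.76% ± 0.386, 3.52% ± 0.180 and 3.37% ± 0.603.

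**Figure D3:**
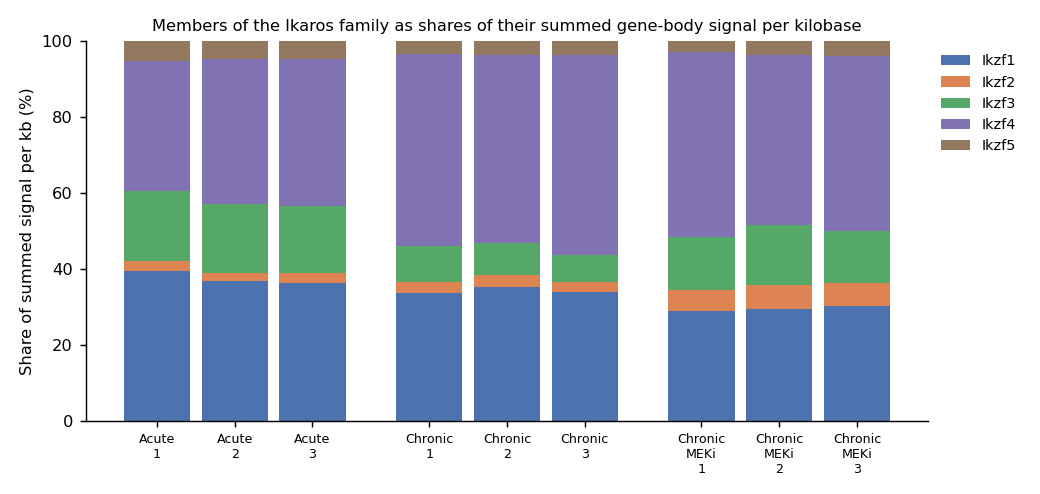
Stacked share of each member in the summed level per kilobase of the family (vertical axis in percent, 1 bar per library). The Ikzf3 segment is thinnest in the chronic libraries (mean 8.34%), the Ikzf2 segment is widest in the MEK inhibitor libraries (mean 5.97%), and Ikzf4 has the widest segment in chronic and MEK inhibitor libraries.

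Ratios between members within a library do not depend on how libraries are scaled. All 10 pairs were compared in the 3 comparisons, 30 ratios in all, with an exact two-sided permutation test over libraries, which cannot go below 0.1 with 3 against 3. The smallest p adjusted over the 30 was 0.136, so no ratio passed a threshold of 0.05 and the ratios are given as values. The log2 ratio of Ikzf2 over Ikzf3 was -1.90 ± 0.14 in acute, -0.59 ± 0.20 in chronic and -0.35 ± 0.11 in MEK inhibitor libraries (SD, n = 3 each). Helios relative to Aiolos was higher than in acute libraries without overlap in both other groups, while chronic and inhibitor libraries overlapped (exact permutation p = 0.2). Ikzf3 over Ikzf4 was 1.37 ± 0.12, -0.21 ± 0.26 and 0.73 ± 0.17, so Aiolos relative to Eos was lowest in chronic libraries and intermediate with the inhibitor. Ikzf1 over Ikzf3 was 1.16, 2.15 and 1.13, and acute and inhibitor libraries overlapped (exact permutation p = 0.8). Ikzf1 over Ikzf2 was 3.06 in acute, 2.74 in chronic and 1.47 in inhibitor libraries.

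The changes were next followed along each gene. Every annotated transcript of a member was measured separately, and the spans overlap, so they are not independent. The 4 Ikzf3 transcripts gave -1.28 to -0.76 in chronic against acute and 0.97 to 1.34 in MEK inhibitor against chronic. The 9 Ikzf2 transcripts gave 0.30 to 0.35, 0.85 to 1.31 and, in MEK inhibitor against acute, 1.18 to 1.64. The 8 Ikzf4 transcripts gave 0.52 to 0.75 in chronic against acute and 0.65 to 0.99 in MEK inhibitor against acute. Inhibitor against chronic gave them -0.08 to 0.25, with 5 above 0 and 3 below. The 6 Ikzf1 transcripts stayed between -0.18 and 0.22 over the 3 comparisons. The 7 Ikzf5 transcripts gave -0.50 to -0.10 in chronic against acute, and the one that lies outside Pstk gave -0.20.

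**Figure D4:**
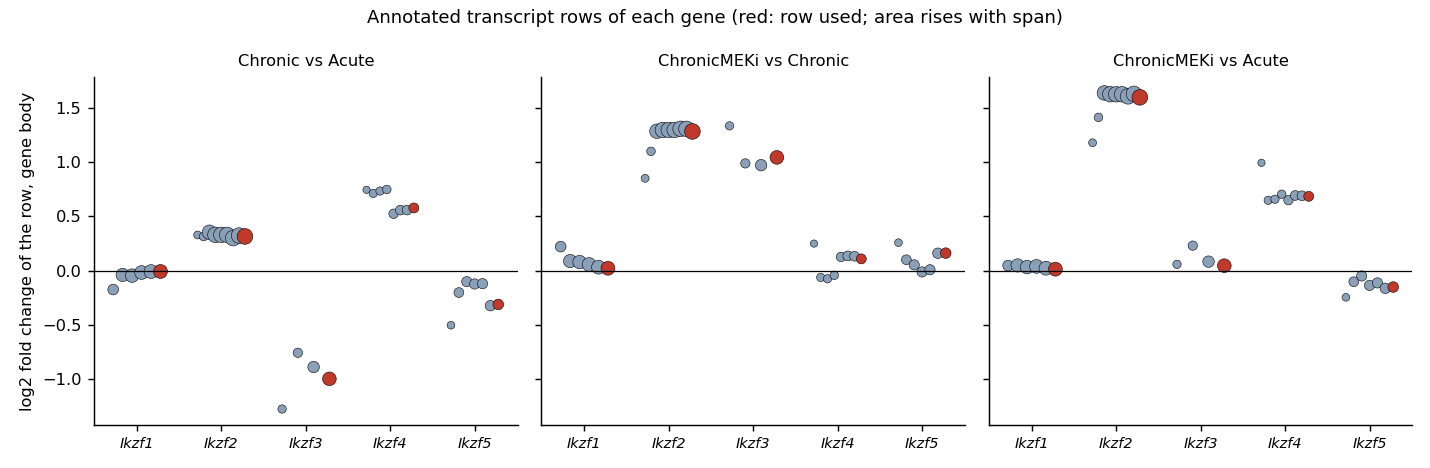
Log2 change of gene-body signal for every annotated transcript of each member in the 3 comparisons, with point area rising with span and the transcript used marked in red. The 4 Ikzf3 transcripts lie between -1.28 and -0.76 in chronic against acute, and the 9 Ikzf2 transcripts lie between 0.85 and 1.31 in MEK inhibitor against chronic.

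Because some transcripts of a member begin close together (65 bases apart for Ikzf2, 231 for Ikzf3) and end far apart, their difference gave the signal of separate stretches, assuming that a value covers the annotated span. For Ikzf2 the upstream stretch (chromosome 1, 69538037 to 69685821, 1.66% exonic) held 19.7 ± 1.13, 24.4 ± 2.696 and 60.1 ± 1.61 per kilobase in acute, chronic and inhibitor libraries (SD, n = 3 each). The last 6823 bases, all exonic, held 98.4 ± 4.48, 128 ± 21.1 and 291 ± 10.4. The log2 difference in MEK inhibitor against chronic was thus 1.31 upstream and 1.195 in the last exonic stretch, with no overlap of the groups in either. The rise was therefore also present in sequence that is almost all intron in the transcript used, from whose exons the exonic shares were counted.

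For Ikzf3 the upstream stretch (chromosome 11, 98512688 to 98545800, 0.643% exonic in the transcript used) held 142 ± 10.9, 77.3 ± 12.8 and 151 ± 13.4 per kilobase. Another annotated transcript that spans it has 4607 exonic bases. The downstream stretch of 47786 bases (7.21% exonic) held 181 ± 10.8, 87.8 ± 16.1 and 184 ± 6.36. The log2 differences were -0.89 and -1.06 in chronic against acute, and 0.97 and 1.09 in MEK inhibitor against chronic. Aiolos was thus lower in chronic cells both early and late in the gene. For Ikzf4 the upstream stretch (26.4% exonic) held 305 ± 33.3, 447 ± 12.8 and 492 ± 60.2, and the last 1572 bases, all exonic, held 702 ± 70.2, 1096 ± 73.9 and 1111 ± 94.7. For Ikzf1 and Ikzf5 the groups overlapped in both stretches of this split in each comparison. A split of Ikzf1 from its most upstream start gave a first part of 22798 bases with 345 ± 18.9, 306 ± 12.7 and 356 ± 18.3. There the chronic libraries (297.7 to 320.4) lay below every acute (325.1 to 362.6) and every inhibitor library (335.8 to 370.5). The next 46283 bases held 312 ± 27.3, 319 ± 34.6 and 322 ± 13.6, with overlap. The difference in the first part was not tested. In Ikzf1 the last 3128 exonic bases held 1222 ± 88.5, 1271 ± 157 and 1088 ± 116 per kilobase against 313 ± 20.1, 309.6 ± 21.6 and 322 ± 15.0 upstream.

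Signal in the pause region was far lower and varied more between libraries. Ikzf1 gave scaled pause-region signals of 362, 363 and 251 in acute, 171, 349 and 226 in chronic and 425, 514 and 514 in MEK inhibitor libraries. At the start of the transcript used, the inhibitor libraries lay above all others. Ikzf1 rose by 1.00 in MEK inhibitor against chronic (SE 0.24, limma adjusted p = 0.0186), the single member called in this comparison, where 2.96% of 7678 tested genes passed. The call was lost without chronic library 1 (0.77, adjusted p = 0.119), without chronic library 3 (0.96, adjusted p = 0.0575), without MEK inhibitor library 2 (0.96, adjusted p = 0.0900) or without MEK inhibitor library 3 (0.96, adjusted p = 0.103).

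By start, the Ikzf1 pause signal had means of 31.1, 10.7 and 20.9 in acute, chronic and inhibitor libraries at 11685003. At 11685925, the start that follows the GC-rich sequence printed above, they were 187, 184 and 326. They were 325, 249 and 484 at 11686213 and 294, 193 and 339 at 11686445. Groups overlapped at 11685925, where MEK inhibitor library 1 (261) lay below chronic library 2 (264). They also overlapped at 11686445, where MEK inhibitor library 1 (309) lay below acute library 3 (321). The signal of Ikaros thus lay downstream of the GC-rich promoter rather than at the most upstream annotated start.

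Ikzf3 gave 216, 239.6 and 338 in acute, 41.6, 159.9 and 125 in chronic and 252, 209 and 139 in MEK inhibitor libraries. The chronic libraries lay below the acute ones, and the fall was 1.40 on the log2 scale (-1.40, SE 0.35, limma adjusted p = 0.00874). Without chronic library 1 the change was -0.85 and did not pass the test (adjusted p = 0.0851). Ikzf4 gave 147, 114 and 94.6 in acute, 307, 264 and 265 in chronic and 168, 192 and 165 in MEK inhibitor libraries. The 3 groups did not overlap, and the rise in chronic against acute was 1.22 (SE 0.26, limma adjusted p = 0.00213), though 0.64 with library totals (adjusted p = 0.152). In MEK inhibitor against chronic Ikzf4 had -0.66 and did not pass the test (limma adjusted p = 0.222), and Ikzf3 had 0.99 (adjusted p = 0.155). Thus 2 of 5 members, Aiolos and Eos, were called in chronic against acute, where 10.7% of the tested genes passed. The pause region of Eos cannot be told apart from that of Gm26876, a non-coding gene that starts on the other strand within the same window and has identical values.

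Ikzf2 gave 39.0, 10.7 and 18.9 in acute, 12.5, 12.8 and 41.1 in chronic and 88.8, 115 and 84.2 in MEK inhibitor libraries, and passed the minimum on low values through the inhibitor libraries alone. A gene admitted this way had to be higher with the inhibitor, so its levels are a description and no test is drawn from them. Of the other members in MEK inhibitor against acute, Ikzf1 had 0.58 (limma adjusted p = 0.177), Ikzf4 0.56 (adjusted p = 0.240), Ikzf3 -0.41 (adjusted p = 0.587) and Ikzf5 0.30 (adjusted p = 0.830), where 5.85% of the tested genes passed. At the more upstream Ikzf2 start (69687245) the means were 7.22, 14.8 and 29.1, and at a downstream one (69684157) they were 30.7, 25.8 and 55.2. The inhibitor mean was highest at each, but at 69687245 inhibitor libraries (33.6, 43.1 and 10.5) overlapped chronic library 3 (31.1). At another start (69684536) the means were close, at 28.3, 22.2 and 29.7. Ikzf5 lay between 16.6 and 127 with overlap of all groups.

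**Figure D5:**
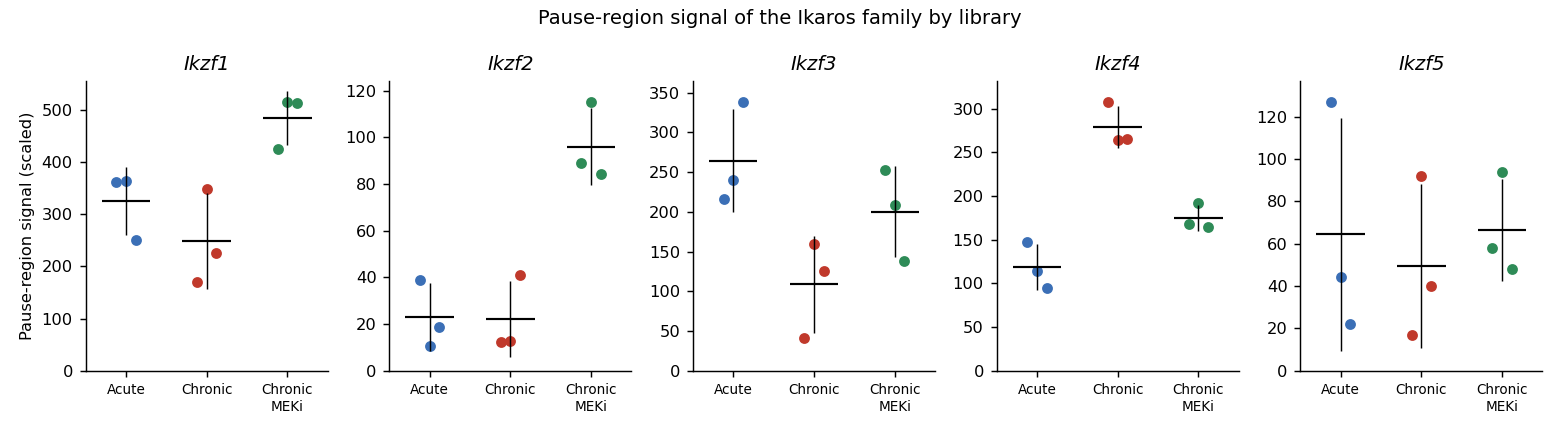
Scaled pause-region signal of each member (vertical axes from 0, scaled signal) in the 9 libraries, with points for libraries, bars for group means and vertical lines for the SD (n = 3). Ikzf4 is highest in chronic libraries (264 to 307), Ikzf2 in MEK inhibitor libraries (84.2 to 115), and Ikzf5 overlaps in all groups.

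The ratio of pause-region to gene-body signal was tested for 7413 genes. It is only an indirect index of how much polymerase waits near the start, since labelled RNA was measured and not polymerase. No gene passed limma's adjusted test in any comparison, so 0% of genes and 0 of 5 members were called in each. At an unadjusted limma p under 0.05 there were 738 genes (9.96%) in chronic against acute. There were 396 (5.34%) in MEK inhibitor against chronic and 571 (7.70%) in MEK inhibitor against acute. The share of 5.34% is near what a threshold of 0.05 lets through without any difference. In that comparison Ikzf1 (0.98, adjusted p = 0.750 in limma) was among these genes. Ikzf4 was too, in the other direction (-0.76, adjusted p = 0.820 in limma), and no conclusion is drawn from either. The log2 ratio of Ikzf1 was -6.52 ± 0.23 in acute, -6.93 ± 0.45 in chronic and -5.95 ± 0.21 in inhibitor libraries, and that of Ikzf4 was -5.41 ± 0.43, -4.77 ± 0.13 and -5.54 ± 0.25 (SD, n = 3 each). Under other settings between 0 and 25 genes passed.

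Genes that overlap or adjoin the members bear on what the strandless signal counts. Gm29114, antisense to Ikzf2, had levels of 1071 ± 93.3, 1245 ± 112 and 3185 ± 165 and changed like Ikzf2, by 1.35 in MEK inhibitor against chronic (limma adjusted p = 1.50e-07), and the reads of this pair cannot be told apart where they overlap. It spans 69513932 to 69547707, so most of the upstream Ikzf2 stretch, where the difference was 1.31, lies outside it. The last exonic Ikzf2 stretch lies wholly inside it, so the difference of 1.195 there cannot be assigned to Ikzf2 alone. Pstk, a tRNA-modifying kinase gene that overlaps Ikzf5 on the other strand, had -0.05 in chronic against acute and did not pass the test. An Fgfr2 transcript on the same strand spans all of Ikzf5, so its strandless signal also counts Ikzf5 and any other gene in its span. Its value rose by 0.97 in chronic against acute (limma adjusted p = 8.13e-05), while Ikzf5 had -0.31. That rise cannot be assigned to Fgfr2 itself, whose pause-region means were 15.7, 17.5 and 23.0 in acute, chronic and inhibitor libraries. Gm11999, which overlaps Ikzf1, had -0.12 and did not pass either.

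Nearby genes did not always follow. Next to Ikzf3, Grb7, an adaptor protein gene, moved the same ways (-0.73, limma adjusted p = 0.0449, then 1.42, adjusted p = 0.00108). Next to Ikzf4, Suox, the sulfite oxidase gene, rose by 1.503 in chronic against acute (limma adjusted p = 3.89e-05) and Rps26, a ribosomal protein gene, by 0.39 (adjusted p = 0.0271). Next to Ikzf1, Fignl1, a DNA repair gene, rose by 0.86 in chronic against acute (limma adjusted p = 1.58e-05) where Ikzf1 had -0.01. Acadsb, the acyl-CoA dehydrogenase gene beside Ikzf5, fell by 0.98 in chronic against acute (-0.98, limma adjusted p = 0.0261) and rose by 1.17 with the inhibitor (adjusted p = 0.0169). The nearest tested genes of Ikzf2, Erbb4 and Spag16, were not called.

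Genes with the most similar pattern were named by Pearson's r of log2 gene-body signal over the 9 libraries, the 3 highest for each member among 10408 genes (10406 for Ikzf5). The 9 points fall into 3 groups and share their scale factors, so r is a description. For Ikzf3 they were Rasgrp2, an activator of the small GTPase Rap1 (0.989), Pcgf5, a Polycomb subunit (0.989), and Dock9, an activator of Cdc42 (0.987). Rasgrp2 had mean levels of 2123, 317 and 1900.3. For Ikzf2 they were Plekha7, a junction protein (0.992), Eif2ak3, the stress kinase PERK (0.984), and Fgd6 (0.983). Eif2ak3 had mean levels of 3663, 3837 and 9209. For Ikzf4 they were Kif1c, a kinesin (0.985), Zfp282 (0.983) and Tedc1 (0.982), and Kif1c had levels of 811, 1952 and 2185. For Ikzf5 they were Fsd2 (0.972), Tnfrsf13b (0.896) and Hbp1 (0.890), and for Ikzf1, which hardly varied, B4galt1 (0.914), Kat14 (0.910) and Thrap3 (0.878). Between members r was 0.72 for Ikzf2 with Ikzf4, 0.59 for Ikzf3 with Ikzf5 and -0.65 for Ikzf4 with Ikzf5, and between -0.29 and 0.36 for the other 7 pairs.

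Of the genes for the NuRD complex, the main partner of the family, 13 of 14 were tested. In chronic against acute 3 were higher and 4 lower (median change 0.01, against -0.01 over all genes), beside 33.3% of all genes called. In MEK inhibitor against chronic 4 were higher and 0 lower (0.25 against 0.01), beside 16.7% of all genes, and in MEK inhibitor against acute 5 were higher and 1 lower (0.08 against -0.03), beside 25.6%. With library totals these became 0 and 8, 5 and 0, and 1 and 6, so the directions of the smaller changes flip with the scale. Chd3, a NuRD helicase, had levels of 4746 ± 829, 639 ± 43.2 and 2331 ± 223 (SD, n = 3 each). It fell by 2.87 in chronic against acute (-2.87, limma adjusted p = 8.37e-12) and rose by 1.86 in MEK inhibitor against chronic (adjusted p = 7.47e-09). Chd4, the related helicase, had 3016, 3029 and 4668 and rose by 0.63 with the inhibitor (limma adjusted p = 0.000281). Mbd2, a methyl-CpG reader, fell by 0.58 in chronic against acute (-0.58, limma adjusted p = 0.000181), and Hdac1, a deacetylase, rose by 0.46 with the inhibitor (adjusted p = 0.00309). The number called in chronic against acute was 7 of 13, but 4 without acute library 1, acute library 3 or chronic library 1, and 3 with no minimum on low values or no trend.

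The smaller lists of this paragraph were called at shares near or below those of all genes in chronic against acute. The shares of all genes were 33.3% there, 16.7% in MEK inhibitor against chronic and 25.6% in MEK inhibitor against acute. Of 6 SIN3 and CtBP corepressor genes 1 was higher and 1 lower in chronic against acute (median 0.21), 0 were called in MEK inhibitor against chronic (-0.12), and 1 was higher in MEK inhibitor against acute (0.18). Ctbp2 had 427 ± 57.5, 961 ± 232 and 643 ± 65.0 and rose by 1.14 in chronic against acute (limma adjusted p = 9.77e-05), and Ctbp1 fell by 0.33 (-0.33, adjusted p = 0.039). Of 5 cereblon ligase genes 4 were tested, and Cul4b was not analysed here. Crbn, the receptor of thalidomide-type drugs, had 1358 ± 84.8, 1027 ± 31.4 and 1031 ± 52.8. It fell by 0.40 in chronic against acute (-0.40, limma adjusted p = 0.02) and was the 1 gene called there (list median 0.08). It was also the 1 gene called in MEK inhibitor against acute (-0.07), and 0 were called in MEK inhibitor against chronic (-0.13). Of 6 genes for casein kinase 2 and protein phosphatase 1, which add and remove phosphates on Ikaros, 2 were lower in chronic against acute (-0.12), 0 were called in MEK inhibitor against chronic (0.00) and 1 was lower in MEK inhibitor against acute (-0.06). Csnk2a1 fell by 0.37 (-0.37, limma adjusted p = 0.00405) and Ppp1cc by 0.30 (-0.30, adjusted p = 0.0334) in chronic against acute.

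Of 15 genes reported as targets of the family in lymphocytes 12 were tested, and Il2, Hes1 and Dntt did not reach the minimum signal. In chronic against acute 4 were higher and 6 lower (median -0.29), 83.3% of those tested, beside 33.3% of all genes. Il10, an anti-inflammatory cytokine, rose by 3.83, and Ifng, the interferon gamma gene, rose by 3.69, from 138 ± 27.4 to 1841 ± 344. Cd8a fell by 2.07 (-2.07) and Cd4 by 0.98 (-0.98). For MEK inhibitor against chronic 3 were higher and 5 lower (-0.11), 66.7% beside 16.7% of all genes. Cd8a rose by 1.55 and Tbx21, the T-bet gene, by 1.42, while Il10 fell by 4.34 and Prdm1, the Blimp-1 gene, fell by 1.85. Compared with acute, inhibitor cells had 3 genes higher and 5 lower (-0.23), 66.7% beside 25.6% of all genes. Ifng was at 2.43 and Cd4 at -1.92. These lists were chosen with earlier results of these data known, so their counts are a description.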

How the data were processed

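Per the labels' protocols, nascent RNA labelled with 5-ethynyl uridine was captured and sequenced from 9 libraries. The submitters' processing notes name FastQC 0.12.0, Trim Galore 0.6.10, STAR 2.7.0a, SAMtools 1.19.2, deepTools 0.1.9, R 4.1.2 and mm10. Region coordinates, counter, annotation and strand use are not given in the sources used here. The authors deposited a gene-body and a pause-region signal per transcript for each library. Low values are whole multiples of a step of 0.764 to 1.06 per library, shared by both tables. Starts within the same 50-base bin had equal pause signals in 99.95% of 14122 pairs, and 188 of 376 suitably placed starts on opposite strands had identical values in all 9 libraries, so strands were not separated.

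Of 118482 transcript rows, 753 did not match the GENCODE M21 annotation (GRCm38), and chromosomes 1 to 19 were covered. One transcript per gene was used, that with the largest mean gene-body signal. Genes needed a signal of at least 50 in 3 libraries. Scale factors came from trimmed log ratios between libraries, averaged without weights (30% and 5% trimmed), log2(signal + 5) was tested with limma 3.58.1 (trend and robust, a mean per group over the 9 libraries, R 4.3.3), and p-values were adjusted by Benjamini-Hochberg over all tested genes with a threshold of 0.05. A fold change on this scale understates changes of low values. Alternatives were 3 other scalings, pseudocounts 1 and 20, no minimum, no trend, own groups, a replicate block and leaving out each library. The members and lists were chosen with earlier results of these data known. Of each list up to 4 genes were named, those with the largest called rises and falls, and any that the minimum left out, and the 3 genes most alike by r for each member.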

Additional observations from a re-analysis of the deposited data

How the results depend on the processing

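Each gene-body result of the members was recomputed under 10 other settings and with each of the 9 libraries left out. Among these settings, the longest transcript left the member signals unchanged, since the transcript used is also the longest for each member. The fall of Ikzf3 in chronic against acute (-1.49 to -0.85), the rises of Ikzf2 (1.22 to 1.45) and Ikzf3 (0.90 to 1.21) in MEK inhibitor against chronic, and those of Ikzf2 (1.25 to 1.62) and Ikzf4 (0.33 to 0.75) in MEK inhibitor against acute kept direction and call in all 19. With library totals, gene-body changes in chronic against acute were -0.50 for Ikzf1, -0.18 for Ikzf2, 0.086 for Ikzf4 and -0.80 for Ikzf5, and in MEK inhibitor against acute -0.34 for Ikzf1, -0.31 for Ikzf3 and -0.50 for Ikzf5. On the deposited scale they were -0.48, -0.16, 0.10 and -0.79, and -0.30, -0.27 and -0.46. When totals left out the ribosomal RNA-like locus, Ikzf2 had 0.15 and Ikzf5 -0.47 in chronic against acute, and Ikzf1 -0.13 and Ikzf3 -0.094 in MEK inhibitor against acute. Without a trend Ikzf2 in chronic against acute had 0.31 (adjusted p = 0.0585). Leaving out 1 library moved Ikzf1 from -0.061 to 0.036 in chronic against acute, -0.021 to 0.068 in MEK inhibitor against chronic and -0.033 to 0.045 in MEK inhibitor against acute, and Ikzf2 in chronic against acute from 0.25 to 0.39. The cause was not tested.

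In the pause region, library totals gave Ikzf1 -1.01 and Ikzf4 0.64 in chronic against acute, Ikzf2 2.24 in MEK inhibitor against chronic, and Ikzf2 1.71 and Ikzf5 -0.0066 in MEK inhibitor against acute. Ikzf2 reached the minimum through the inhibitor libraries alone, which fixes its direction, so its values are descriptions: 2.22 on the deposited scale, 1.52 with pseudocount 20 and 2.06 with own groups in MEK inhibitor against chronic, and 2.19 with pseudocount 1 and 1.98 with no minimum in MEK inhibitor against acute. Ikzf2 in chronic against acute was 0.031 with totals without the ribosomal RNA-like locus. Ikzf1 in MEK inhibitor against chronic (1.00) missed the test with no minimum and with no trend, and Ikzf3 in chronic against acute (-1.40) with no trend. With 1 library left out the ranges were 0.77 to 1.27 for Ikzf1 in MEK inhibitor against chronic, -0.52 to 0.32, 1.80 to 2.503 and 1.61 to 2.37 for Ikzf2 in the 3 comparisons, -1.76 to -0.85 for Ikzf3 in chronic against acute, and -0.84 to 0.31 and -0.24 to 0.92 for Ikzf5 in chronic and MEK inhibitor against acute. Without a MEK inhibitor library Ikzf2 no longer reached the minimum and had no value.

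The ratio of pause region to gene body changed sign for Ikzf5 in chronic against acute (-0.032) and Ikzf3 in MEK inhibitor against chronic (0.057) with library totals, and for Ikzf5 in chronic against acute with pseudocount 1 (-0.011). On the deposited scale it did for Ikzf2 (0.053) and Ikzf3 (0.0019) in chronic against acute and Ikzf4 in MEK inhibitor against acute (0.31), and Ikzf4 had 0.13 there with totals without the ribosomal RNA-like locus. With pseudocount 20 Ikzf2 had -0.11 in MEK inhibitor against acute. With 1 library left out, chronic against acute ranged from -0.91 to 0.031 for Ikzf2, -0.74 to 0.25 for Ikzf3 and -0.48 to 0.60 for Ikzf5, MEK inhibitor against chronic from -0.71 to 0.28 for Ikzf3 and -0.064 to 0.93 for Ikzf5, and MEK inhibitor against acute from -0.29 to 0.12 for Ikzf4 and -0.025 to 1.03 for Ikzf5. Ratios between members kept their sign with pseudocounts 1 and 20. The longest-transcript setting reads the same transcripts of the members, so it could not test their ratios. With 1 library left out, an alternative chosen after seeing the data, all but these kept it: the difference in Ikzf1 over Ikzf3 in MEK inhibitor against acute ranged from -0.094 to 0.037 (above 0 without MEK inhibitor library 2), and that in Ikzf4 over Ikzf5 in MEK inhibitor against chronic from -0.24 to 0.042 (above 0 without MEK inhibitor library 2 or 3).

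Genes called in the pause region in chronic against acute were 818, against 1723 with library totals, 505 with no minimum and 539 to 750.0 with 1 library left out. For MEK inhibitor against chronic they were 227, against 107 with no minimum, 110 with no trend and 106 to 275 with 1 library left out, and in MEK inhibitor against acute 449, against 210.0, 235 and 228 to 512. For the ratio in chronic against acute 4 genes passed with library totals, 2 on the deposited scale, 1 with pseudocount 1, 20 with pseudocount 20, 25 with no minimum, 1 with own groups and 0 to 1 with 1 library left out. Of the inhibitor comparisons, MEK inhibitor against acute had 1 with pseudocount 20, and MEK inhibitor against chronic 2 with no minimum. List counts in chronic against acute became 3, 3 and 0 for the cereblon ligase with library totals, on the deposited scale and with no minimum (0 to 1 with 1 library left out), and 4, 4, 1 and 1 for casein kinase 2 and protein phosphatase 1 under these and no trend (1 to 2). They became 1 and 1 for SIN3 and CtBP with no minimum and no trend (1 to 2), and 4, 3, 4 and 3 for NuRD with totals without the ribosomal RNA-like locus, no minimum, own groups and no trend (4 to 7). NuRD in MEK inhibitor against chronic had 7 on the deposited scale, there casein kinase 2 and protein phosphatase 1 had 1 with each of the 3 scalings and with own groups (0 to 1), and SIN3 and CtBP had 2 with library totals and the deposited scale and 1 with pseudocount 20 and own groups (0 to 1). For MEK inhibitor against acute the cereblon ligase had 2, 2 and 0 with library totals, on the deposited scale and with no minimum (0 to 1), casein kinase 2 and protein phosphatase 1 had 4, 4, 2 and 0 with the 3 scalings and no trend, and SIN3 and CtBP had 0 on the deposited scale, with totals without that locus, with no minimum and with no trend (0 to 1).

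Same-numbered libraries did not deviate together (correlations of -0.53 to 0.10, none of 9 over 0.1, and 2 of 9 libraries correlated best with their own number), so the numbers are treated as names. A replicate block moved genes called to 5349, 2733 and 4101 in the gene body, 862, 265 and 512 in the pause region and 0, 0 and 0 for the ratio, and SIN3 and CtBP had 2 called in MEK inhibitor against chronic. It changed no gene-body call of a member: Ikzf3 in chronic against acute had -0.9996 with the block (adjusted p = 1.14e-07). Depth in reads is unknown, and pause-region signals are low.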
